A study of Rattus norvegicus with 6 samples.

Results

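The 6 genes described here encode subunits of the NADPH oxidases of phagocytes and of the kidney: Cybb, Cyba, Ncf1, Ncf4, Rac2 and Nox4. They were chosen by symbol, as every probe set whose single gene symbol in the platform annotation is one of the 6. This gave 8 probe sets, 2 each for Cybb and Cyba and 1 for each other gene, among 31042 probe sets tested, whose single symbols name 14217 genes. RNA abundance was measured on 6 Affymetrix Rat 230 2.0 arrays in 2 fractions of the digested inner medulla, the innermost zone of the kidney, from male Sprague-Dawley rats. Both fractions came from rats given 1 mg of the loop diuretic furosemide intraperitoneally, 30 min before decapitation, and from tissue treated with collagenase B and hyaluronidase (75 min, 37 °C). Cells pelleted at low speed, enriched in the inner medullary collecting duct, formed the IMCD fraction (3 arrays), and cells collected from the supernatant formed the nonIMCD fraction (3 arrays). By their labels, the rats of 5 arrays were 10 weeks old and those of IMCD replicate 1 were 6 weeks old. The study names 7 rats and 3 repeats without giving the rats behind each array, and each fraction is an enrichment, not a pure cell type.

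NADPH oxidases move electrons from NADPH across a membrane to oxygen and so make superoxide or hydrogen peroxide. In phagocytes the catalytic protein Cybb and its partner Cyba form the membrane-bound cytochrome b, which stays silent until a cytosolic complex that holds the organiser Ncf1 and the adaptor Ncf4 joins it together with the GTPase Rac2. Nox4 is a catalytic protein found in kidney epithelium that needs Cyba but none of the cytosolic subunits, and Cyba also serves Nox1, which works with the organiser Noxo1.

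The fractions were compared to ask which transcripts mark the collecting duct against the other cells of the inner medulla. Collecting duct principal cell markers followed the labels, with 11 of 12 higher in IMCD and a summed intensity of 238705 to 256556 on IMCD arrays and 113548 to 148244 on nonIMCD arrays. Pan-leukocyte and macrophage markers ran the other way: 17 of 18 were lower in IMCD, and their summed intensity was 5078 to 7124 there and 178546 to 183134 in nonIMCD. Of these 18 markers, Aif1, Itgam and Mrc1 lay on all IMCD arrays at or under 78.4, the highest value of the 3 probe sets for a bacterial transcript that is not in the samples, which serve here as negative controls. The log2 ratio of 3' to 5' signal of 3 rat control transcripts, a measure of RNA quality, averaged 0.69 (SD 0.03, n = 3) for IMCD arrays and 1.35 (SD 0.14, n = 3) for nonIMCD arrays. Markers of other cells were lower in IMCD as well: 9 of 9 measured endothelial markers (median log2 difference -1.99), 3 of 3 of the thin limb of Henle (-3.48), 6 of 11 of interstitial cells and pericytes (-1.69) and 3 of 6 of the thick ascending limb (-1.35). The part of these cell types, of leukocytes and of RNA quality in the differences given here was not tested. In such mixed samples fewer cells of a type and less RNA per cell cannot be told apart.

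Of the 6 subunit genes 5 were lower in the IMCD fraction, 0 were higher and 1, Nox4, did not pass (limma, adjusted p under 0.05 over all probe sets, brightest probe set of each gene). Across all genes 15.7% were called lower and 10.0% higher by the same rule. The median log2 difference of the 6 genes was -2.83, against -0.09 for all genes, where a difference is IMCD minus nonIMCD on the scale of log2(intensity + 16). By probe set, 6 of 8 were called lower and 0 higher, against 13.4% and 8.58% of all probe sets, and for 7 of 8 every IMCD array lay under every nonIMCD array, against 24.9%. The sizes were far from equal. The intensity left in IMCD was 1.32% of the nonIMCD mean for Cybb and 1.70% for Rac2, 12.8% for Ncf4 and 44.3% for Cyba. For Ncf1, whose IMCD signals lay within the negative controls, the ratio came to 11.9%, and to 4.99% without IMCD replicate 1, so it is no exact measure.

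The catalytic subunit Cybb had the largest difference of the 6 genes when each was read by its brightest probe set. Its brighter probe set read 170.2, 226.0 and 260.4 on IMCD replicates 1 to 3 and 17686, 16539 and 15351 on nonIMCD replicates 1 to 3. The fractions lay far apart, and no IMCD array came near the nonIMCD range. The difference was -6.15 ± 0.18 (SE, limma adjusted p = 0.000139), which placed it 10th from the bottom among 31042 probe sets. The dimmer Cybb probe set read 134.5, 158.0 and 145.2 in IMCD and 4406, 3897 and 4535 in nonIMCD, a difference of -4.73 ± 0.13 (SE, limma adjusted p = 0.000117). Both probe sets gave the same direction, and the brighter one changed by 1.43 more on the log2 scale (exact permutation test, two-sided p = 0.1, the smallest that 3 against 3 arrays allow).

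Cyba, the membrane partner that Cybb and Nox4 share, kept much more of its signal. It read 2104, 2153 and 2227 in IMCD, a narrow range, and 5079, 5133 and 4434 in nonIMCD. The groups did not overlap, but both were bright: the mean log2 value of this probe set lay at the 90.5th percentile of all probe sets. Cyba was lower in IMCD by 1.17 ± 0.12 on the log2 scale (SE, limma adjusted p = 0.00227), a 2.25-fold difference, with IMCD at 2161 ± 62 and nonIMCD at 4882 ± 389 (SD, n = 3). A second, dim Cyba probe set read 4.27 to 15.6 in IMCD and 15.9 to 92.9 in nonIMCD, near or within the negative controls. Its difference of -1.41 ± 0.52 (SE) did not pass (limma adjusted p = 0.116) but passed without nonIMCD replicate 3 (-1.99, adjusted p = 0.0101).

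Among the cytosolic subunits, Ncf4 and Ncf1 had intermediate differences. Ncf4, an adaptor that binds membrane phosphoinositides, read 272.9, 296.8 and 357.5 in IMCD and 2613, 2374 and 2244 in nonIMCD. Every array of either fraction was well above the negative controls, and the difference was -2.91 ± 0.15 (SE, limma adjusted p = 0.000333), or 7.49-fold. Ncf1, the organiser that carries the complex to the cytochrome, was dim: 69.3, 16.4 and 10.6 in IMCD and 207.6, 279.5 and 325.3 in nonIMCD. All 3 IMCD values of Ncf1 lay under the highest negative control, so its difference of -2.75 ± 0.47 (SE, limma adjusted p = 0.0112) is uncertain in size. With the replicate number as a block the same difference had adjusted p = 0.0525 and did not pass.

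Rac2, the Rac GTPase of blood cells, differed less than the brighter Cybb probe set and more than the dimmer one (-4.73). It read 102.0, 90.8 and 126.6 in IMCD and 6410, 5981 and 6352 in nonIMCD. The nonIMCD arrays agreed closely (SD 0.05 on the log2 scale), and the IMCD arrays stood a little above the highest negative control. The difference was -5.69 ± 0.15 (SE, limma adjusted p = 0.000117), a 51.5-fold change, 29th from the bottom among all probe sets. The low IMCD signal limits this size, which ran from -5.87 to -5.22 under the other settings.

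Nox4, the catalytic protein of renal epithelium, was hardly above background in either fraction. It read 80.2, 106.4 and 5.40 in IMCD and 22.2, 32.4 and 12.6 in nonIMCD. IMCD replicates 1 and 2 were the only arrays above the highest negative control, IMCD replicate 3 was the lowest of all 6, and the groups overlapped. The log2 difference was 0.75 ± 0.68 (SE, limma adjusted p = 0.49), with a 95% interval of -0.93 to 2.43. Leaving out IMCD replicate 3 gave 1.53 ± 0.28 (SE, limma adjusted p = 0.0277), so the call for Nox4 turned on that array. Proximal tubule markers, from the segment where Nox4 is best known, were mostly dim: Slc5a2 and Slc5a12 did not exceed the highest negative control on any of the 6 arrays, nor did Cubn on the IMCD or Slc22a6 on the nonIMCD arrays. Of 9 measured markers of that segment 2 were lower in IMCD, 0 were higher and 7 did not pass, against 15.7% of all genes lower and 10.0% higher. Their summed intensities were 821 to 918 in IMCD and 4000 to 5267 in nonIMCD. The 2 lower markers, Lrp2 and Gatm, gave most of the nonIMCD sums, with means of 3429 and 908.9 there. The part of that segment in the Nox4 values was not tested.

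**Figure D1:**
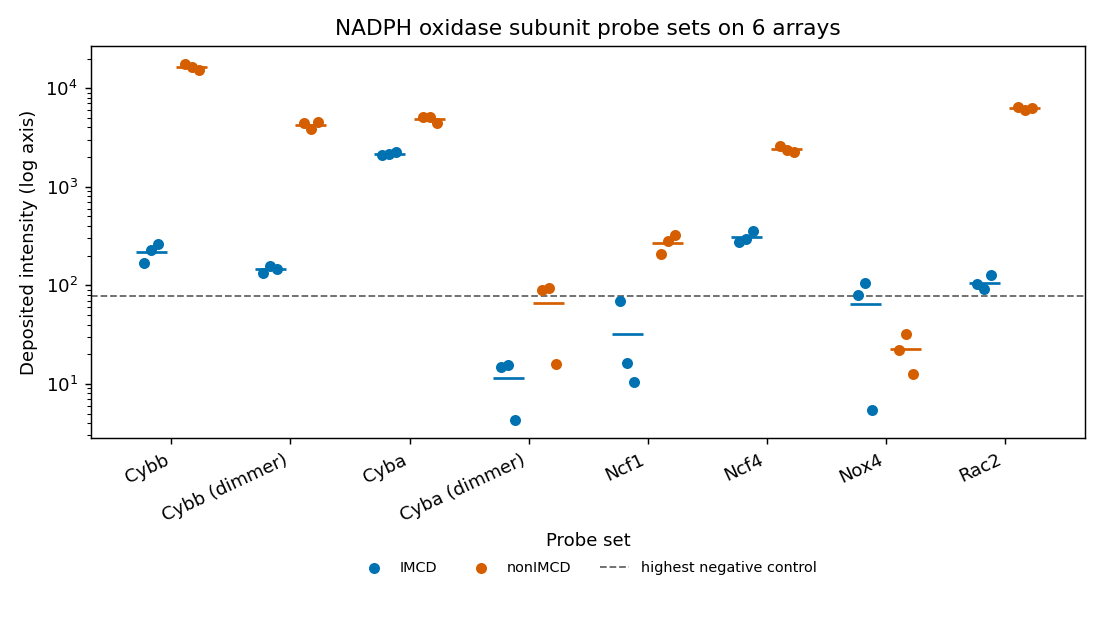
Deposited intensity (log axis) of the 8 probe sets of the 6 subunit genes, 1 point per array, with IMCD in blue, nonIMCD in orange, bars at the group means of 3 arrays and a dashed line at the highest negative control (78.4). Cybb, Rac2 and Ncf4 separate widely, the brighter Cyba probe set stays at 2104 or above in both fractions while the dimmer one lies between 4.27 and 92.9, and Nox4 overlaps near the negative controls.

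The promoters of Cybb, Cyba and Ncf1 are shown because these genes were all lower in IMCD but kept from 1.32% to 44.3% of their nonIMCD signal. RefSeq promoter windows were found for 4 of the 6 genes (Cybb, Cyba, Ncf1 and Nox4, build GRCr8). The 250 bases before the annotated start are printed 5′ to 3′ on the gene's strand. Capitals mark matches, on either strand, to GAGGAA, a core bound by the myeloid factor PU.1, to CCAAT, and to the GC box GGGCGG. A match on the opposite strand appears as its reverse complement, and no matches overlapped. These motifs were chosen after the expression values were seen.
Cybb, chrX:16065066-16065315, minus strand: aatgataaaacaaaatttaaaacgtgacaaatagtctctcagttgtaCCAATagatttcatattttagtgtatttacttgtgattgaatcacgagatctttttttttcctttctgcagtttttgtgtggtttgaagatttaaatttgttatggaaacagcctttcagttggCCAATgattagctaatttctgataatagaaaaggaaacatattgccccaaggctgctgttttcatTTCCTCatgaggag
Cyba, chr19:67404215-67404464, minus strand: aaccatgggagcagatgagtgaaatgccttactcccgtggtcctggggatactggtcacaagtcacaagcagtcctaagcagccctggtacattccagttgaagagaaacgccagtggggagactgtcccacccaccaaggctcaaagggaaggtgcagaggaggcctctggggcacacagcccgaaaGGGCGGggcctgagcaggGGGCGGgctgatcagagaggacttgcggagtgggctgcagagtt
Ncf1, chr12:28121635-28121884, plus strand: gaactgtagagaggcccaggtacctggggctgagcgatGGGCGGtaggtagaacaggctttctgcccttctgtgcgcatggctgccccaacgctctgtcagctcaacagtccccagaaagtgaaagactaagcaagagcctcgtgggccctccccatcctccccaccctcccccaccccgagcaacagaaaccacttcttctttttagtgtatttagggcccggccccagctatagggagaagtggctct

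The Cybb window held 1 GAGGAA match on the opposite strand, 14 to 9 bases before the start, and 2 CCAAT matches, 79 to 75 and 203 to 199 bases before it. The Cyba window held 2 GGGCGG matches, at 62 to 57 and 44 to 39 bases before the start, and the Ncf1 window 1, at 212 to 207. Among 33469 promoter windows of the same length, 23.3% held GAGGAA, 34.0% CCAAT and 30.5% GGGCGG. The Cybb window was AT-rich, with a GC content of 32.0% (2.88th percentile of all windows), while Cyba had 59.6% and Ncf1 58.4%, against a median of 51.2%. The Nox4 window (chr1:150313639-150313888, plus strand) had 72.8% GC and 2 GGGCGG matches. A match is a run of letters and not a measured binding site.

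The subunits were also set against each other within each array. For 14 of 15 pairs of genes the within-array log2 difference between the 2 genes did not overlap between the fractions, and each of these 14 reached the smallest possible p (exact permutation test, two-sided p = 0.1, adjusted p = 0.107 over 15 pairs), so no pair could pass 0.05. Of all pairs of genes measured, 47.6% were apart in the same way. Pairs that hold Nox4 or Ncf1 are limited by signals near or within the negative controls. The gap between the nearest arrays was only 0.021 for Cyba and Nox4 and 0.125 for Cyba and Ncf1. Ordered by difference, from Cybb through Rac2, Ncf4, Ncf1 and Cyba to Nox4, the neighbours Ncf4 and Ncf1 could not be told apart (0.15 between them, exact permutation p = 0.9), and the sign between them turned without IMCD replicate 1 (-0.44) or nonIMCD replicate 1 (-0.08). Cybb and Rac2 were 0.47 apart on the log2 scale by their brightest probe sets, with a gap of 0.09 between the nearest arrays. The dimmer Cybb probe set (-4.73) would place Cybb after Rac2 (-5.69). Relative to its partner Cyba, Cybb changed by -4.99, the gap between the nearest arrays being 4.71.

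The sizes were set beside those of the leukocyte markers. The mean log2 value of the 18 pan-leukocyte and macrophage markers was 7.14 on the IMCD arrays (SD 0.21, n = 3) and 12.13 on the nonIMCD arrays (SD 0.11, n = 3), which differ by -4.99. The median difference of the markers was larger, at -5.68, and single markers ran from -7.06 (C1qb) to -0.49 (Cd163). Cyba changed by 3.82 less than that mean, with IMCD arrays at 3.64 to 4.10 and nonIMCD arrays at -0.03 to 0.05 relative to the nonIMCD mean. Ncf4 changed by 2.08 less and Ncf1 by 2.23 less. Relative to the marker mean, the brighter Cybb probe set changed by -1.17 and Rac2 by -0.70, although Rac2 (-5.69) lay at the marker median and C1qb and Aif1 (-6.79) were lower than Cybb (-6.15). The dimmer Cybb probe set differed from the mean by 0.26, with overlapping arrays (exact permutation p = 0.3). All other probe sets of the 8 did not overlap and reached p = 0.1, the smallest possible (exact permutation test, two-sided, adjusted p = 0.114 over 8 tests). Of all probe sets 99.6% were apart from the marker mean in this way, so the count is not a result about the subunits. For Nox4, the dim Cyba probe set and Ncf1 this comparison is limited by IMCD signals within the negative controls. The marker mean itself shares this limit. Aif1, Itgam and Mrc1 did not exceed the highest negative control on any IMCD array. Tyrobp, C1qb, Cx3cr1, Adgre1 and Cd163 lay at or under it on 2 IMCD arrays each, and Ptprc and Cd53 on 1. The sizes relative to this mean are therefore uncertain for all 8 probe sets. For the bright Cyba probe set the value kept its sign and ran from 3.35 to 4.08 under other scalings and pseudocounts and from 3.68 to 3.91 with 1 array left out.

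**Figure D2:**
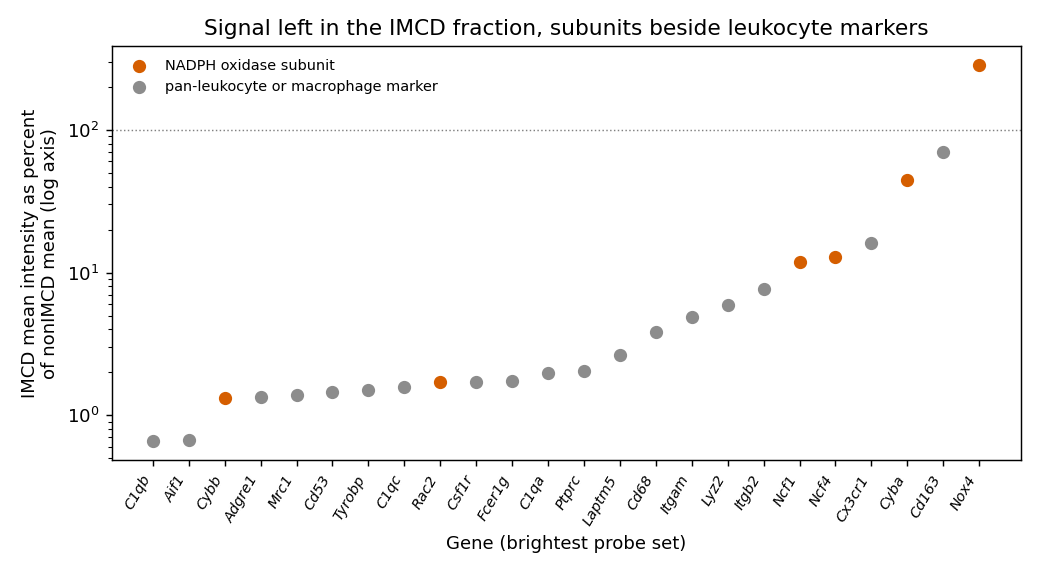
Mean IMCD intensity as a percent of the mean nonIMCD intensity (log axis, 3 arrays each) for the 6 subunit genes in orange and the 18 pan-leukocyte and macrophage markers in grey, sorted. Cybb (1.32%) and Rac2 (1.70%) sit among markers such as Csf1r (1.70%) and Ptprc (2.05%), Ncf4 (12.8%) and, from IMCD signals within the negative controls, Ncf1 lie near Cx3cr1 (16.1%), and Cyba (44.3%) below Cd163 (70.2%), whose signals, like those of Nox4, lie near the negative controls.

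Markers of other leukocytes were also lower or dim. Of 7 measured neutrophil markers 2 were lower in IMCD (S100a8 and Csf3r), 0 were higher and 5 did not pass, with a summed intensity of 398 to 792 in IMCD and 1282 to 1710 in nonIMCD. Among 10 measured lymphocyte markers the counts were 6 lower, 1 higher (Cd79b, 1.09 ± 0.14, SE, limma adjusted p = 0.00421) and 3 without a call, with summed intensities of 1218 to 1460 and 8556 to 9480. The neutrophil granule gene Camp never exceeded the highest negative control, and Cd3d, Cd3g, Cd2 and Ms4a1 did not on any IMCD array. Which of these cells carried the oxidase transcripts was not tested.

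**Figure D3:**
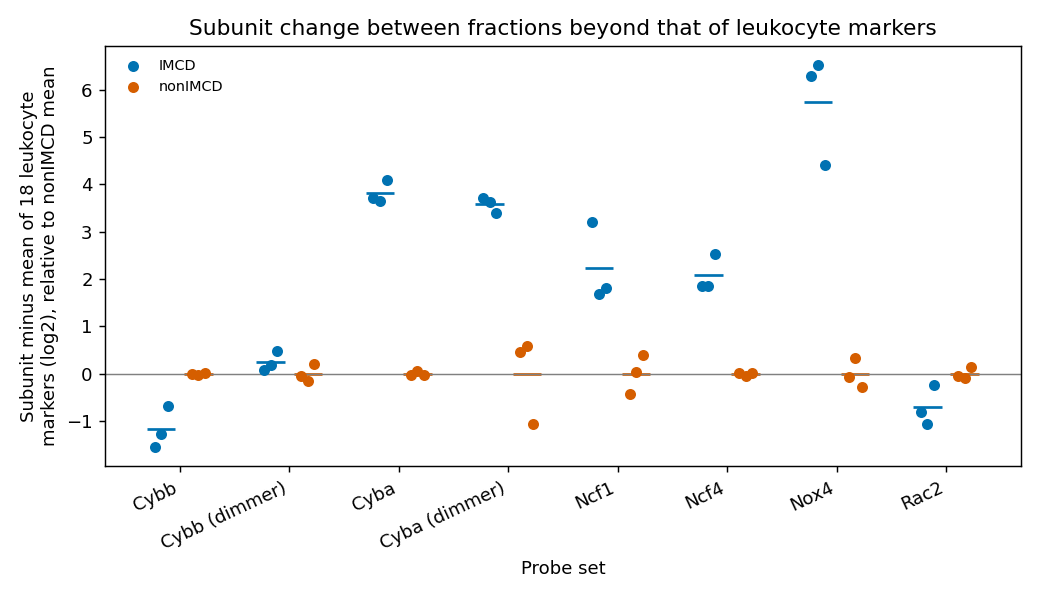
Within-array log2 value of each subunit probe set minus the mean of 18 leukocyte markers, relative to the nonIMCD mean, 1 point per array and bars at group means. On this scale 0 means a change equal to that of the marker mean: Cyba sits at 3.82, Ncf1 at 2.23 and Ncf4 at 2.08, the brighter Cybb probe set at -1.17 and Rac2 at -0.70. Markers with IMCD signals within the negative controls limit these sizes.

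Other parts of the oxidase system were read from lists of genes. Of 16 listed core and organiser genes 9 were measured, and 1 was higher, 0 were lower and 8 did not pass (background 10.0% of genes higher and 15.7% lower), with a median of -0.13. The higher gene was Noxo1, the organiser of Nox1, which read 246.6, 316.1 and 201.1 in IMCD and 58.0, 28.4 and 7.92 in nonIMCD. All nonIMCD values of Noxo1 lay under the highest negative control and all IMCD values above it. Its difference was 2.64 ± 0.43 (SE, limma adjusted p = 0.00981), while a second Noxo1 probe set, dim in both fractions, gave 0.11 (adjusted p = 0.914).

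Nox1, the catalytic partner of Noxo1, read 120.1 to 143.1 in IMCD and 53.5 to 196.1 in nonIMCD, with nonIMCD replicate 3 the highest of all arrays. Its difference of 0.51 ± 0.44 (SE, limma adjusted p = 0.462) passed only when nonIMCD replicate 3 was left out (1.01, adjusted p = 0.0178). Rac1, the widely expressed Rac GTPase that can stand in for Rac2, was bright everywhere, at 16973 to 17444 in IMCD and 15599 to 16996 in nonIMCD. Rac1 differed by 0.07 ± 0.11 (SE, limma adjusted p = 0.713; 95% interval -0.21 to 0.35), with the sign turned after quantile normalization (-0.13). Cybc1, a chaperone of the cytochrome, had -0.20 (adjusted p = 0.351), the Nox4-binding protein Poldip2 -0.22 (adjusted p = 0.295) and the small GTPase Rap1a -0.13 (adjusted p = 0.553), and all 3 turned positive under median centring (0.08, 0.07 and 0.16). Duox2 (0.01, adjusted p = 0.991), Duoxa1 (-0.30, adjusted p = 0.759) and the scaffold Sh3pxd2b (-0.63, adjusted p = 0.198) had signals near the negative controls. Sh3pxd2b passed without nonIMCD replicate 1 (-0.94, adjusted p = 0.0363).

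Activators of the oxidase were called in both directions. Of 12 measured genes 3 were lower (Prkcb, Vav1 and Prkcd), 3 higher (Vav3, Prkcz and Tiam1) and 6 did not pass. The background was 15.7% of genes lower and 10.0% higher, and the list had a median of 0.03. Prkcb, a protein kinase C that phosphorylates Ncf1, read 105.6 to 151.5 in IMCD and 2522 to 2745 in nonIMCD, a difference of -4.24 ± 0.16 (SE, limma adjusted p = 0.000204). Vav1, the Rac exchange factor of blood cells, read 73.2 to 85.2 and 740.4 to 769.3 (-3.03 ± 0.12, SE, limma adjusted p = 0.000204). Its relative Vav3 went the other way, at 4773 to 6063 in IMCD and 2018 to 2293 in nonIMCD (1.26 ± 0.15, SE, limma adjusted p = 0.00302), and so did the atypical kinase Prkcz (1.26 ± 0.14, SE, limma adjusted p = 0.00243) and the Rac exchange factor Tiam1 (1.16 ± 0.16, SE, limma adjusted p = 0.00537). Tiam1 and Prkcd were named after their values were seen.

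**Figure D4:**
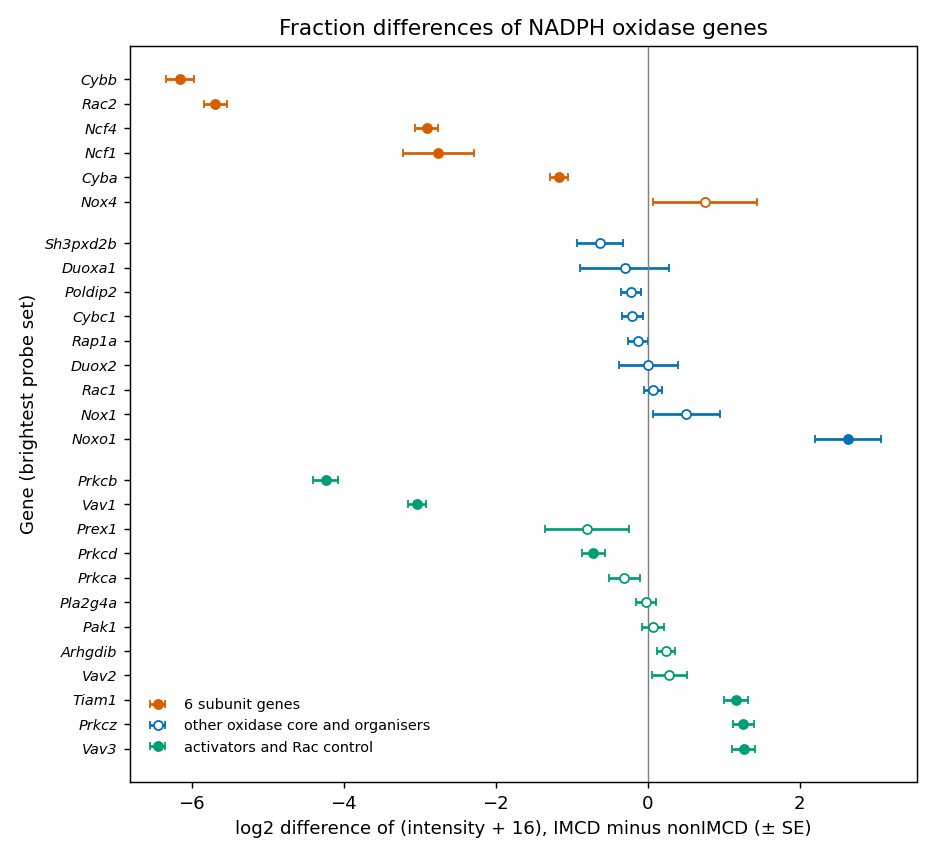
Log2 difference of (intensity + 16), IMCD minus nonIMCD, with standard errors from limma, for the 6 subunit genes, 9 other core and organiser genes and 12 activators (brightest probe set each). Filled points passed an adjusted p of 0.05 and open points did not. The points run from -6.15 (Cybb) to 2.64 (Noxo1), with Rac1 at 0.07.

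Of 11 measured transcription factors known to drive phagocyte oxidase genes, 5 were lower, 1 higher and 5 without a call. The background was 15.7% of genes lower and 10.0% higher, and the list had a median of -0.59. The lower ones were Hoxa9 (-3.18 ± 0.17), Irf8 (-3.11 ± 0.18), Hoxa10 (-2.64 ± 0.15), Cebpa (-2.03 ± 0.19) and Nfkb1 (-0.59 ± 0.13; SE, limma adjusted p = 0.000377, 0.000399, 0.000413, 0.00147 and 0.0231). Irf8, a factor of macrophages and dendritic cells, read 411.7 to 471.5 in IMCD and 3096 to 4335 in nonIMCD. Elf1, an ETS factor that binds the Cybb promoter in myeloid cells, was higher in IMCD (0.80 ± 0.16, SE, limma adjusted p = 0.0178). The count of higher genes in this list was 0 without IMCD replicate 1 or 3 or nonIMCD replicate 2 or 3. Nfkb1 and Elf1 were named after their values were seen.

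Enzymes that remove superoxide and peroxide did not share the direction of the subunits. Of 11 measured, 4 were higher in IMCD, 0 lower and 7 did not pass, with a median of 0.44. The background was 10.0% of genes higher and 15.7% lower. The secreted glutathione peroxidase Gpx3 read 2700, 2639 and 1650 in IMCD and 743.9, 440.4 and 611.1 in nonIMCD (1.93 ± 0.28, SE, limma adjusted p = 0.00659). Mitochondrial Sod2 read 11759, 9175 and 9275 against 4545, 3499 and 4115 (1.31 ± 0.17, SE, limma adjusted p = 0.00447). Prdx6 (0.48, adjusted p = 0.044) and cytosolic Sod1 (0.44, adjusted p = 0.0482) passed narrowly, and each lost its call without any 1 of the 6 arrays (adjusted p = 0.0683 to 0.135 and 0.0943 to 0.143). Median centring gave 8 higher genes in this list, quantile normalization 2 and a replicate block 2. These scalings moved the median difference of all probe sets by 0.29 and 0.15.

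For each member the 3 genes with the most similar profile were named by the root mean square difference of log2 values over the 6 arrays, each profile centred on its own mean, among 13977 genes. Rac2 was closest to Csf1r (0.10), C1qc (0.15) and Gng2 (0.18), and Cybb to Prf1 (0.17), C1qc (0.20) and Csf1r (0.22). Ncf4 lay nearest Cd83 (0.08), Psca (0.08) and Prkcq (0.10), and Ncf1 nearest Stat4 (0.19), Klrb1b (0.19) and Entpd1 (0.26). Mean IMCD intensities of Prf1 (9.43), Gng2 (20.3), Stat4 (22.0), Klrb1b (19.05) and Entpd1 (33.2) lay under the highest negative control, which limits these likenesses. The profile of Cyba was closest to those of Selenon (0.06), Chst10 (0.07) and Fhod3 (0.07), with differences of -1.07, -1.09 and -1.27. The neighbours of Nox4 were Serpina3m (0.15), Zmat4 (0.33) and Plekha4 (0.33), all with mean intensities of 79.4 to 80.5 in IMCD and 21.9 to 44.0 in nonIMCD. Both Cybb and Rac2 had C1qc and Csf1r among their 3 nearest genes.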

How the data were processed

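Intensities of 6 arrays, 3 per fraction, were analysed as deposited by the authors: 1 linear value per probe set, with a trimmed mean (2% off either end) of 1000.3 to 1000.4 per array. Software, scaling settings and detection calls: not given in the sources used here. Biotinylated cRNA was made from total RNA, per the labels' protocols. Tests left out 57 control probe sets. Symbols came from the platform annotation of 2016. Log2(intensity + 16) was fitted with limma 3.58.1 in R 4.3.3 (lmFit, eBayes, two-sided, all 6 arrays, no covariate, no filter) and adjusted by Benjamini-Hochberg over 31042 probe sets. The pseudocount of 16 understates differences of dim signals. The limma step was tested on simulated data. Genes are represented by their brightest probe set. Named were all members, all measured core genes, up to 4 called genes with the largest difference per other list, and 3 nearest profiles per member. Members and lists were chosen with earlier results of these data known. The design names 3 pairs but not which arrays form them, so p-values measure the spread between arrays, and array number limits the precision. Alternatives were median centring, quantile normalization, pseudocounts 1 and 64, dim probe sets (lowest 40%) left out, an intensity trend, a replicate block, the mean of a gene's probe sets, and each array left out.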

Additional observations from a re-analysis of the deposited data

How the results depend on the processing

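Among the members, Cybb, Cyba (brighter probe set), Ncf4 and Rac2 kept their direction and call under every alternative that was run. The count of lower member probe sets was 5 to 6 under changed settings and 6 to 7 with 1 array left out, and that of higher ones 0 to 1 (Nox4 without IMCD replicate 3). With 1 array left out Nox4 ran from 0.27 to 1.53 and the dimmer Cyba probe set from -1.99 to -1.11. Ncf1 missed the threshold with the replicate block (-2.75, adjusted p = 0.0525), and the cause was not tested. Arrays that share a label number deviated together only weakly (r = 0.04, 0.04 and 0.06), although each array correlated best with its own number. With the block 2993 probe sets were lower and 1831 higher, against 4163 and 2663 without it. Median centring gave 2652 lower and 5389 higher, and leaving out 1 array 2647 to 3221 lower and 1537 to 2248 higher. The Ncf1 minus Ncf4 change turned to -0.50 with a pseudocount of 1 and ran from -0.44 to 0.58 with 1 array left out.

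Other core genes called higher were 0 with dim probe sets left out, which removes Noxo1, and 1 to 2 with 1 array left out, lower ones 0 to 1. Superoxide and peroxide genes called higher were 8 (median centring), 2 (quantile), 7 (dim probe sets left out), 7 (intensity trend), 2 (replicate block) and 2 to 3 (1 array left out). Regulators called higher were 2 under median centring, 2 without dim probe sets, 2 with the trend, 2 with a mean over probe sets, and 0 to 1 with 1 array left out. Signs turned for Rac1 (-0.13, quantile), Cybc1, Poldip2 and Rap1a (0.084, 0.066 and 0.161, median centring) and Duox2 (-0.019, pseudocount 64). They also turned with 1 array left out for Duox2 (-0.41 to 0.26) and Duoxa1 (-0.68 to 0.27). Signal over background limits Nox4, Ncf1, Nox1, Noxo1, Duox2, Duoxa1, Sh3pxd2b, Vav1 and the dimmer Cyba probe set. In IMCD, Rac2 (90.8 to 126.6) and Prkcb (105.6 to 151.5) stood only a little above the highest negative control, which limits the size of their differences. The causes of the changed counts and signs were not tested.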

Other observations

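Several genes of the oxidase lists were read by more than 1 probe set, and most of these agreed. All 5 probe sets of the myeloid factor Cebpa were lower in IMCD, by -1.80 to -2.93 on the log2 scale, with limma adjusted p from 0.00147 to 0.0413. The Cebpa probe set at -2.93 lay under the highest negative control on 2 IMCD arrays and that at -2.34 on 3, so both sizes are uncertain. All 3 probe sets of the kinase Prkcb were lower, at -4.49, -4.24 and -1.69, the last from the dimmest signals in nonIMCD (124.6 ± 39.4, SD, n = 3). In IMCD the Prkcb probe sets at -4.49 (4.3 to 11.3) and -1.69 (7.57 to 52.7) lay under the highest negative control, so these sizes are uncertain. Of 4 Tiam1 probe sets 3 were higher (1.16, 1.35 and 2.57), and 1 at 1.46 did not pass (limma adjusted p = 0.0884). The probe set at 2.57 read 3.73 to 9.26 in nonIMCD, under the highest negative control, so its size is uncertain. Both Elf1 probe sets were higher, at 0.80 and 1.47. For Poldip2 the probe sets had opposite signs, -0.22 and 0.31, and neither passed (adjusted p = 0.295 and 0.403).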
